A study of Rattus norvegicus with 6 samples.

Results

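Of the 11061 circular RNAs (circRNAs) counted in rat spinal cord, 2148 (19.4%) were classed by the authors as sense overlapping and carried no circBase identifier. These 2148 circRNAs were chosen by those 2 entries of the deposited table alone, and no count entered the choice. They are called members in what follows. They were set beside the 697 sense overlapping circRNAs that do have an identifier and the 3384 exonic circRNAs that do not. All libraries came from the spinal cord of Wistar rats aged 8 weeks. In 3 libraries the cord had been cut through (SCI, spinal cord injury), and in 3 sham libraries the vertebral arch was opened without injury to the cord. The design text calls the transection complete, the series title can be read as incomplete, and the interval from surgery to collection was not given. Whether the libraries are from different rats is not stated either, so p-values measure the spread between libraries.

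A circRNA is a closed loop made when a splice donor is joined backwards to an acceptor that lies before it, and sequencing detects it by reads across that back-splice junction. Loops have no free ends, which protects them from exonucleases, and many are abundant in neural tissue, where synaptic genes are frequent hosts. Most well-studied circRNAs consist of whole exons. A sense overlapping circRNA lies on the strand of a gene and is placed in neither the exonic nor the intronic class, although the sources used here do not define the term. CircBase is a public catalogue of circRNAs, so a missing identifier says only that the table's match to it was empty. A junction is a single position whatever the distance it spans, so read counts were not divided by length.

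The members fell on 1632 host symbols, as the table assigns them. Of these hosts, 1300 had 1 member, 332 had 2 or more and 41 had 4 or more. For 812 hosts the members were the only sense circRNAs in the table, while 723 hosts also had an exonic circRNA. The transcript named beside a member was a curated RefSeq coding transcript for 1576, an Ensembl transcript for 383, a predicted non-coding RefSeq transcript for 177 and a curated non-coding one for 11. Of the 1931 members whose host symbol matched the RefSeq gene table of the assembly GRCr8, 1893 had a protein-coding host, 33 a long non-coding RNA host and 4 a miRNA gene. The strands were even, with 1068 members on plus and 1080 on minus. Placeholder symbols (LOC, RGD or AABR) were the hosts of 252 members, which held 11.3% of member reads. For 9 members (0.466% of those matched) the host lies on another chromosome in that assembly, and the Tuba1a member described below is the most read of them.

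Most members were seen in a single library. Reads were found in only 1 library for 1633 members (76.0%), in 2 for 283, in 3 for 116, in 4 for 56, in 5 for 24 and in all 6 for 36. The exonic circRNAs without an identifier were close to this, with 74.3% in 1 library, whereas 26.5% of the sense overlapping circRNAs with an identifier were confined to 1. At the other end, 1.68% of members had reads in all 6 libraries, against 9.04% of those with an identifier and 0.443% of the exonic circRNAs without one. The table holds only circRNAs whose highest library count is 2 or more, and 958 members had exactly 2 reads in all. The 15530 member reads were held by few: the 52 members with 20 or more reads had 51.5% of them. The members form a short list of recurrent junctions and a long list of rarely read ones. The tests of single members below rest mostly on the short list, while shares, spans and counts of members take in both.

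**Figure D1:**
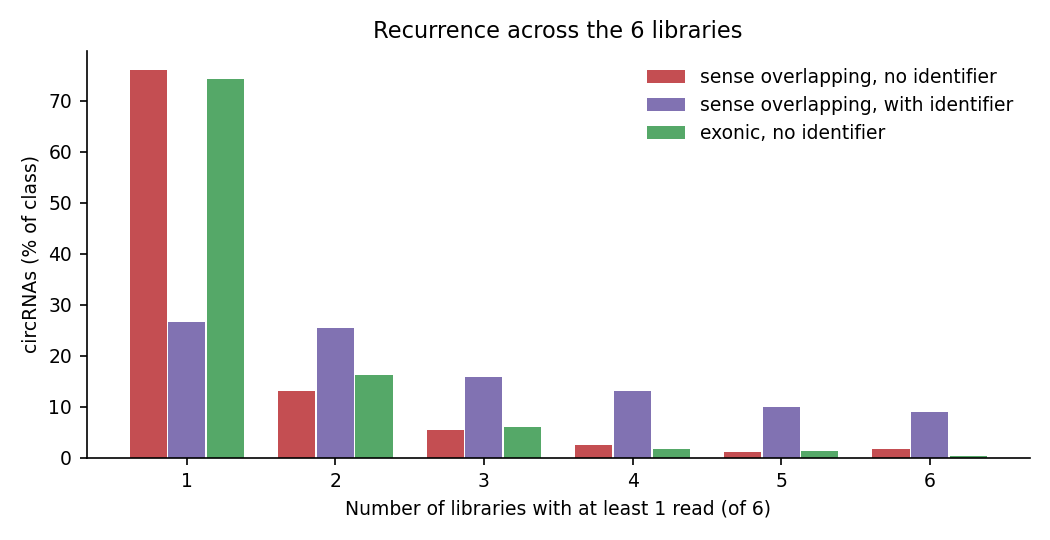
Share of each class (percent of its circRNAs, y axis) by the number of libraries with at least 1 read (x axis, 1 to 6), for the 2148 members, the 697 sense overlapping circRNAs with an identifier and the 3384 exonic circRNAs without one. Members and exonic circRNAs without an identifier stand at 76.0% and 74.3% for 1 library, and the class with an identifier at 26.5%.

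The libraries differed in depth. Back-splice reads numbered 21255, 20847 and 19603 in the SCI libraries, of which 3207, 3259 and 2939 were on members. The sham libraries held 11631, 9805 and 12722, with 2042, 1779 and 2304 on members. Any 2 libraries differed by more than sampling noise, with a chi-square per degree of freedom of 2.23 to 5.15 over the 15 pairs, so all 6 were kept as separate samples.

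Members took a smaller share of back-splice reads in SCI than in sham libraries, spread over more of them. Their share was 15.1%, 15.6% and 14.99% in the SCI libraries and 17.6%, 18.1% and 18.1% in the sham libraries. The Wilson 95% intervals ran from 14.5% to 16.1% in SCI and from 16.9% to 18.9% in sham, and cover counting error only. The means were 15.2% ± 0.345 and 17.9% ± 0.330 (SD, n = 3 each). The groups did not overlap, and the difference of -2.70 percentage points had a two-sided exact permutation p of 0.10, the smallest that 3 against 3 libraries can give (0.175 after Benjamini-Hochberg adjustment over 7 measures). The difference was -1.84 points without the Lbr and Tuba1a members, a setting chosen after seeing the data. With only the members read in 2 or more libraries it was -0.94 points, the groups overlapped and the exact permutation p was 0.40. The rarely read members bore on it in the following way. Members read in 1 library held 3.98%, 3.96% and 4.28% of all reads in SCI and 5.55%, 4.59% and 7.35% in sham. Members read in 5 or 6 libraries held 8.04% ± 0.326 and 9.14% ± 1.67 (SD, n = 3 each), with overlap.

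When every library was thinned to 9805 reads, 492, 510 and 510 members had a read in SCI libraries and 371, 364 and 352 in sham. The mean number of reads on such a member was then 3.005, 3.006 and 2.88 in SCI and 4.64, 4.89 and 5.04 in sham. Neither measure overlapped between groups, and each had an exact permutation p of 0.10 (0.175 adjusted over 7 measures). The table lists only circRNAs with 2 reads in some library, a rule under which junctions enter more readily from the deeper SCI libraries. Relative to all circRNAs with a read, members made up 14.0%, 14.6% and 14.4% in SCI and 14.9%, 13.1% and 16.97% in sham, with overlap (exact permutation p = 0.70). The higher number of members with a read in SCI is therefore not read as particular to members. Reads per circRNA were not taken over the whole table, so that difference is not read as particular to members either. Before thinning, members with exactly 1 read numbered 111, 101 and 106 in SCI and 28, 55 and 19 in sham. Members with 5 or more reads numbered 82, 82 and 71 against 87, 44 and 155, so sham replicate 3 had many members with several reads and few with a single one. What these differences in depth and in the spread of reads contribute to the shares was not tested.

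**Figure D2:**
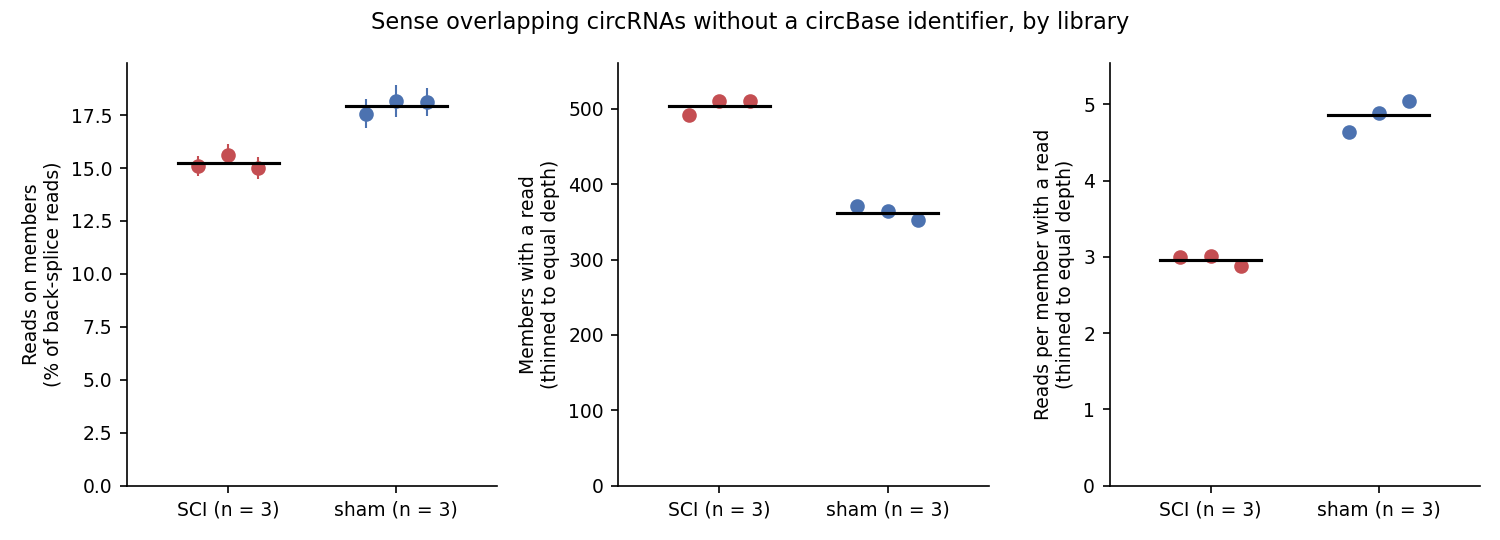
Values per library for SCI and sham (points, n = 3 each; black lines are means): reads on members as a percentage of back-splice reads with Wilson 95% intervals, members with a read after thinning to 9805 reads, and reads per member with a read after thinning. SCI points lie below sham points in the panels of read share and of reads per member, and above them in the panel of members with a read.

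Mean shares of the other classes without an identifier were also lower in SCI, and those of the sense overlapping, exonic and intergenic classes with one were higher. Intronic circRNAs without an identifier held 1.74% ± 0.173 of reads in SCI and 2.78% ± 0.360 in sham, and intergenic ones 1.83% ± 0.213 and 2.67% ± 0.487 (SD, n = 3 each), both without overlap. Among sense overlapping circRNAs with an identifier the share of reads was 11.8% ± 0.527 in SCI and 10.6% ± 0.379 in sham, and among exonic circRNAs with an identifier 49.2% ± 0.587 and 45.2% ± 1.22 (SD, n = 3 each). Exonic circRNAs without an identifier held 13.8% ± 0.704 and 15.1% ± 1.05, with overlap. These shares sum to a whole, so the values are not independent. On the 723 hosts with both a member and an exonic circRNA, members took 23.4%, 25.4% and 22.7% of the sense reads in SCI and 26.3%, 25.4% and 27.6% in sham. The ranges met (exact permutation p = 0.20, 0.28 adjusted over 7 measures).

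Members covered a wide range of distances, with a larger part of very short ones than the classes set beside them. The span, counted from the first to the last base between the junction ends in the genome, ran from 151 to 99373 bp. The quartiles were 2104 bp, 10847 bp and 31316 bp, while the median was 14802 bp for sense overlapping circRNAs with an identifier and 11572 bp for exonic circRNAs without one. Under 1 kb lay 17.2% of members, against 6.03% and 7.15% of those classes, and at 50 kb or more lay 13.2%, against 9.47% and 9.87%. Of the intronic, intergenic and antisense circRNAs without an identifier, 45.9%, 38.6% and 24% lay under 1 kb. The longest span in the whole table was 99882 bp. Within a library the read-weighted median span of members was 8556 to 16322 bp (median 14576) and that of sense overlapping circRNAs with an identifier 5956 to 8260 bp (median 7841). It was longer for members in 6 of 6 libraries, by a mean of 6000 bp (SD 3228; two-sided exact sign-flip permutation p = 0.0312, the smallest that 6 libraries allow, and 0.0625 adjusted over 6 measures, which does not pass). Against exonic circRNAs without an identifier the mean difference was 3247 bp, with members longer in 5 of 6 libraries (exact permutation p = 0.0938, 0.141 adjusted).

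Reads per circRNA were also compared within each library. Members had 2.12 more reads per circRNA with a read than exonic circRNAs without an identifier (SD 0.247), higher in 6 of 6 libraries (exact permutation p = 0.0312, 0.0625 adjusted over 6 measures). Against the sense overlapping circRNAs with an identifier the difference was -0.45 reads (higher in 2 of 6 libraries, exact permutation p = 0.344). Members with exactly 1 read were the smaller share in 6 of 6 libraries, by a mean of -6.73 percentage points against that class (exact permutation p = 0.0312, 0.0625 adjusted). Against exonic circRNAs without an identifier that share differed by a mean of -0.90 points (higher in 2 of 6 libraries, exact permutation p = 0.469). None of these 6 within-library differences, those in span included, passed after adjustment.

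By span, the longest members took a larger part of the member reads in SCI libraries. The 283 members of 50 kb or more held 17.5%, 17.7% and 18% of member reads in SCI and 12.98%, 14.7% and 11.3% in sham, without overlap. Without the Ndrg3 member, the most read of them, the means were 14.9% ± 0.800 and 11.8% ± 1.34 (SD, n = 3 each) and the groups still did not overlap. The 370 members under 1 kb held 7.86%, 7.58% and 8.74% against 10.6%, 7.76% and 14.0%, with overlap. The 2 middle classes, 668 members of 1 to 10 kb and 827 of 10 to 50 kb, held 34.6% ± 0.00474 and 39.6% ± 0.829 in SCI, and 37.4% ± 3.04 and 38.9% ± 2.89 in sham (SD, n = 3 each). The read-weighted median span over all members was 16322 bp in each SCI library, because the middle read fell on the same LOC103690442 junction in all 3, and 12830, 11228 and 8556 bp in sham (exact permutation p = 0.10, 0.175 adjusted over 7 measures).

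**Figure D3:**
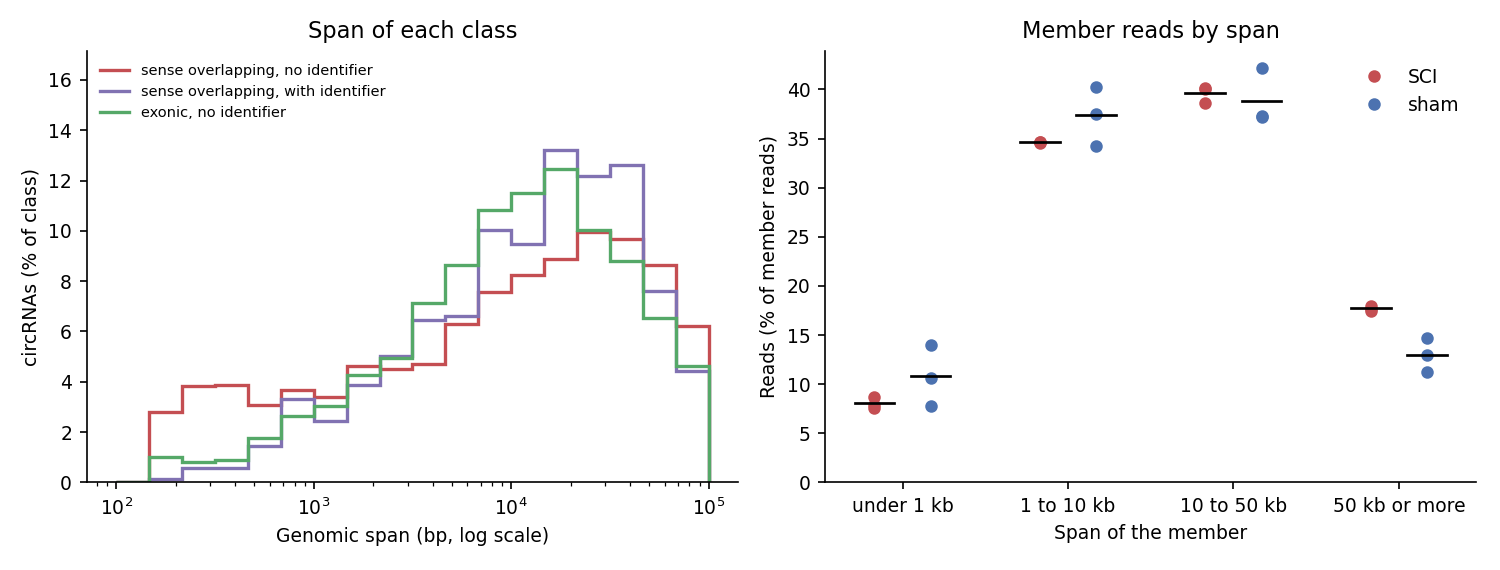
Left: genomic span (bp, log scale) against the percentage of each class, for members, sense overlapping circRNAs with an identifier and exonic circRNAs without one. Of the classes drawn, members have the highest share below 1 kb. Right: percentage of each library's member reads by the span of the member (points are libraries, n = 3 each; lines are means); at 50 kb or more the SCI libraries (17.5% to 18%) lie above the sham libraries (11.3% to 14.7%).

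The short members came from 333 hosts, and 93.0% of the 370 had reads in 1 library. Glial genes, named after their values were seen except for Mbp, S100b and Atp1b2, were among these hosts. Mbp, which encodes myelin basic protein, had 3 under 1 kb, and Gfap, the intermediate filament gene of astrocytes, had 3 with 6 reads, all in sham libraries. S100b, a calcium-binding protein gene of astrocytes, had 2 with 11 reads, all in sham replicate 3. Atp1b2, counted here as an astrocyte host, went the other way, with a 452 bp member that had 2 reads in SCI replicate 3 alone. On the mitochondrial chromosome lay 5 further members of 159 to 402 bp, hosted by Mt-co1, Mt-co3, Mt-nd4 and Mt-nd5, each with 2 reads in 1 library and likewise named after the values were seen.

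Among short members, 4 were read in all 6 libraries and had 20 or more reads. The shortest, a 181 bp junction in Mbp (on the plus strand of chromosome 18, from 78503819 to 78503999), had 39, 29 and 22 reads in SCI against 16, 9 and 9 in sham. A 228 bp junction in Ubb, a polyubiquitin gene (on the plus strand of chromosome 10, from 48664665 to 48664892), had 36, 19 and 21 reads against 21, 16 and 19. A 523 bp junction assigned to LOC102554677 had 17, 19 and 17 against 2, 3 and 2, and a 742 bp junction in Rnf220, a ubiquitin ligase gene, had 6, 6 and 4 against 9, 9 and 3. Whether the reads on these short junctions, that of Ubb among them, come from loops was not tested. Among the longest members with 20 or more reads, the Srp72 junction, from a signal recognition particle gene, spanned 91104 bp and had 7, 12 and 6 reads against 6, 9 and 0. Those of LOC367381 (65083 bp) and LOC102553788 (59794 bp) had 7, 5 and 5 against 3, 2 and 0, and 2, 7 and 7 against 0, 1 and 5. Scaled to library size, the Mbp, Ubb and LOC102554677 values are compared below, and Rnf220 was too low to be tested.

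Most members shared no junction end with an exonic circRNA. At least 1 end was shared by 408 members (19%), of which 185 shared the start alone, 217 the end alone and 6 both. The share was 30.6% for sense overlapping circRNAs with an identifier, and 40.5% of exonic circRNAs without one shared an end with another exonic circRNA. Members with a shared end had a median span of 25824 bp and 65.2% were read in 1 library, against 8182 bp and 78.6% of the others. The members without a shared end held 82.4% of member reads. Another member's end was shared by 380, and 5 had a circRNA at the same positions on the other strand. The count for Ndrg3 is 1 of these: its counterpart on the other strand had 3 reads in 1 library.

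The 10 most read members had hosts of varied function. Nckap1 encodes a subunit of the WAVE complex, which promotes actin branching. Its member (chromosome 3, 74283251 to 74316305, minus strand, 33055 bp) had 194, 230 and 168 reads in SCI libraries, against 90, 121 and 125 in sham libraries. In CPM, which is back-splice reads scaled to a common library size with edgeR's TMM factors, the means were 20950 ± 2884 and 22392 ± 4360 (SD, n = 3 each). The groups overlapped, and the log2 fold change was -0.09 (SE 0.21), with the sign turning in 5 of 13 alternatives. Acaca encodes acetyl-CoA carboxylase alpha, which makes malonyl-CoA for fatty acid synthesis. Its 7482 bp member (on the plus strand of chromosome 10, from 71459843 to 71467324) had 106, 85 and 85 reads against 66, 73 and 66. The CPM averaged 9759 ± 836 after transection and 13746 ± 2325 after sham surgery (SD, n = 3 each). SCI values lay below all sham values, but the difference did not pass (log2 fold change -0.49, SE 0.24, adjusted p = 0.727 by edgeR).

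Ralgapa1, a subunit gene of the complex that switches off the GTPases RalA and RalB, had a 7347 bp member with 92, 81 and 64 reads in SCI against 35, 70 and 62 in sham (chromosome 6, 86124405 to 86131751, minus strand). Nrxn2, a gene of the presynaptic adhesion molecules called neurexins, had a 5292 bp member with 88, 79 and 72 against 43, 31 and 69 (chromosome 1, 228855259 to 228860550, plus strand). Hook3 encodes an adaptor of the dynein motor, and its 5696 bp member had 84, 56 and 32 against 37, 39 and 40. The CPM of these 3 members overlapped between the groups, and in that order the log2 fold change was -0.42 (SE 0.29) for Ralgapa1, -0.14 (SE 0.28) for Nrxn2 and -0.36 (SE 0.33) for Hook3. Dennd5b, a gene of a DENN-domain exchange factor for Rab GTPases, had a 38652 bp member with 76, 74 and 62 reads in SCI against 44, 42 and 12 in sham. Its sham values spread widely, and the log2 fold change was 0.16 (SE 0.40).

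In several of these hosts nearly all back-splice reads were on members. Members held 98.8% of the sense back-splice reads of Nckap1, 99.5% for Ndrg3, 99.4% for Dennd5b, 97.0% for Snrk, 95.7% for Nrxn2 and 86.1% for Acaca. In Ralgapa1, which had 16 sense circRNAs, the share was 58.6%, 48.2% and 55.7% in SCI and 71.4%, 69.3% and 68.9% in sham. The SCI values lay below the sham values there, as in Nrxn2 (91.7%, 94.0% and 94.7% against 100% in each sham library). In Sv2b they lay above, with 80.6%, 92.7% and 89.6% in SCI against 78.9%, 57.1% and 48.9% in sham. No test was made of the share in any single host. In Ubn2 members held 30.8% and in Ssbp2 16.3%.

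**Figure D4:**
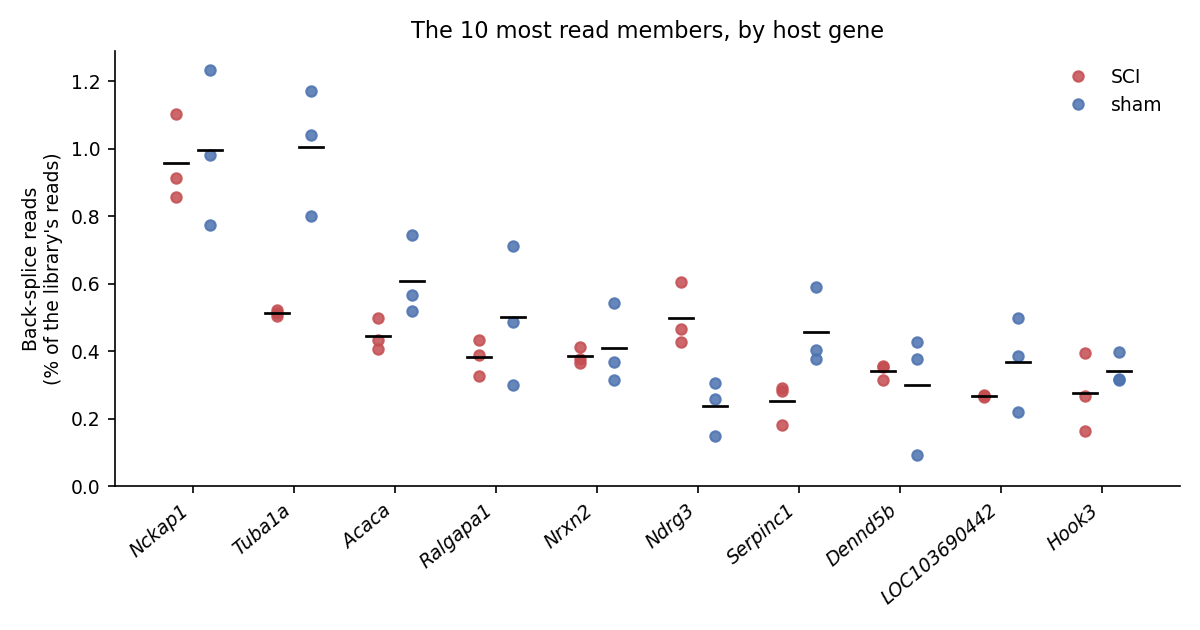
Back-splice reads as a percentage of the library's reads (y axis) for the 10 members with the highest mean share, by host gene (points are libraries, n = 3 each; lines are means). The Nckap1 and Tuba1a members lead, and the SCI points of Tuba1a (0.505% to 0.522%) lie below its sham points (0.802% to 1.17%).

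Junction counts were then compared between SCI and sham over the whole table, to ask which members differ after transection. Only 44 members (2.05%) had enough reads to be among the 484 circRNAs tested, and these held 50.1% of member reads. A junction could enter through high counts in 1 group alone, so values over the 44 do not stand for all members. One member was lower in SCI by edgeR's quasi-likelihood test at adjusted p under 0.05 and 0 were higher. This was the only call among the 484 circRNAs, 0.207% of those tested. At an unadjusted p under 0.05 there were 5 members, 2 of them higher, and 30 circRNAs in all (6.2%). By DESeq2 and limma-voom 2 members were lower and 0 higher.

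The called member lies in Lbr, the gene of the lamin B receptor, a protein of the inner nuclear membrane that holds chromatin and has sterol reductase activity. It spans 7148 bp (chromosome 13, 106627698 to 106634845, minus strand) and is the only circRNA of this host in the table. The SCI counts were 25, 19 and 18 and the sham counts 59, 30 and 74, so each sham library had more reads than any SCI library despite its lower total. Mean CPM was 2187 ± 279 after transection and 10555 ± 3406 after sham surgery (SD, n = 3 each). The log2 fold change was -2.27 (SE 0.34, adjusted p = 0.00291 by edgeR). It ranged from -2.37 to -1.64 over 13 alternatives, of which 11 kept the call. The call ended without sham replicate 1 and when no filter on low counts was used. In tissue made of many cell types, fewer cells of one type and less of this RNA per cell cannot be told apart.

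The member assigned to Tuba1a, an alpha-tubulin gene, was second by p. It spans 21734 bp on chromosome X (115123964 to 115145697, minus strand), whereas Tuba1a is not on that chromosome in GRCr8; close copies of tubulin genes exist, and the host is uncertain. Read counts were alike between groups, 111, 107 and 99 in SCI against 121, 115 and 102 in sham, at unequal library totals. Mean CPM was therefore 11231 ± 82.7 against 22687 ± 4108 (SD, n = 3 each), without overlap. The log2 fold change of -1.01 (SE 0.22) had an adjusted p of 0.0760 by edgeR, and 6 of 13 alternatives put it under 0.05, with adjusted p from 4.55e-05 to 0.796.

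The members with positive values and the smallest p did not pass. An Ndrg3 member (chromosome 3, 158659372 to 158715668, plus strand, 56297 bp), from a gene of the N-myc downstream regulated family, had 129, 97 and 84 reads in SCI against 30, 30 and 19 in sham. Its CPM was 10912 ± 1791 and 5366 ± 1771 (SD, n = 3 each) without overlap, and the log2 fold change was 1.03 (SE 0.31, adjusted p = 0.393 by edgeR). The LOC102554677 member had 1882 ± 157 CPM against 475 ± 169, again without overlap (log2 fold change 1.97, SE 0.74, adjusted p = 0.727). Sv2b, a synaptic vesicle glycoprotein gene, had a 65593 bp member with 58, 76 and 60 reads against 30, 4 and 23. Its groups overlapped in CPM and its log2 fold change was 0.89 (SE 0.45, adjusted p = 0.748). Ubn2, whose protein belongs to a histone chaperone complex, had a 59396 bp member with 23, 30 and 40 reads against 0, 12 and 7 (log2 fold change 1.37, SE 0.72, adjusted p = 0.748). Zmym2, a zinc finger gene, had 27, 43 and 31 reads against 17, 2 and 17, and LOC367597 had 8, 9 and 18 against 0, 0 and 7, both with overlap (log2 fold changes 0.62, SE 0.55, and 1.48, SE 1.08). Myt1l, a neuronal transcription factor gene, had a member with 9, 16 and 14 reads against 4, 1 and 4, and Snrk, a kinase gene of the AMPK-related family, one with 45, 58 and 40 against 18, 18 and 18. Their log2 fold changes were 1.22 (SE 0.81) and 0.49 (SE 0.35).

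Among members with negative values, Serpinc1 came after Tuba1a. It encodes antithrombin, the plasma inhibitor of thrombin known chiefly from the liver. Its 60214 bp member (chromosome 13, 83673616 to 83733829, plus strand) had 60, 38 and 57 reads in SCI libraries against 47, 58 and 48, which is 5505 ± 1315 and 10294 ± 2320 CPM (SD, n = 3 each). The groups did not overlap, and the log2 fold change was -0.90 (SE 0.30, adjusted p = 0.665 by edgeR). The LOC103690442 member, of 16322 bp, had 57, 55 and 53 reads against 45, 49 and 28, with overlap in CPM (log2 fold change -0.50, SE 0.32). Members in Ascc2, a subunit gene of the activating signal cointegrator complex, and in Fkbp15 had 8, 5 and 4 against 5, 7 and 13 reads, and 10, 10 and 5 against 17, 11 and 3. Their log2 fold changes were -1.42 (SE 0.76) and -1.25 (SE 0.73). The short myelin junction in Mbp stood at 0.48 (SE 0.47) and that in Ubb at -0.47 (SE 0.42).

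Of the 44 members tested, 17 had values above 0 in log2 fold change, with a median of -0.21, against 272 (56.2%) and a median of 0.09 over all 484. Above the median of all lay 16 of the 44. Leaving out the filter moved the median of all 484 by 0.58 and limma-voom by 0.21, after which 32 and 22 members were positive, but 15 and 18 lay above the shifted median. In CPM, SCI values lay above all sham values in 4 of the 44 members (9.09%), against 9.71% of the 484 circRNAs tested. They lay below all sham values in 6 members (13.6%), against 5.17%. The 4 were Ndrg3, LOC102554677, Myt1l and Snrk, and the 6 were Lbr, Tuba1a, Serpinc1, Acaca, Ascc2 and Slc26a11, of which the last was named after its values were seen. The first share is near the background. The second rests on 6 members.

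**Figure D5:**
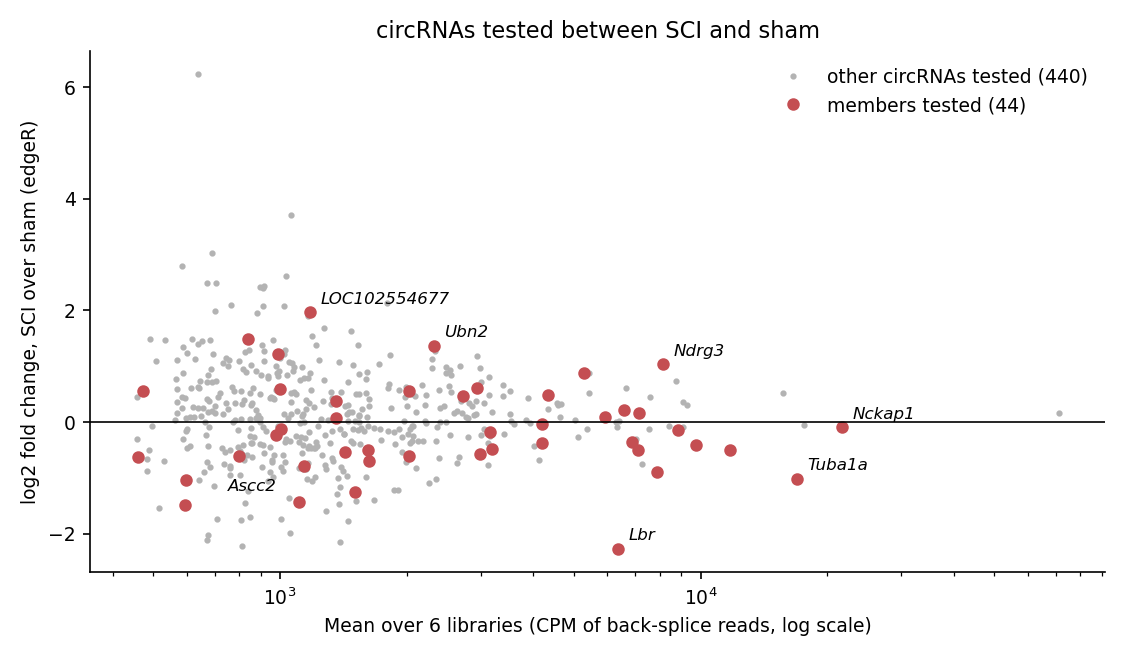
Mean level over the 6 libraries (CPM of back-splice reads, log scale, x axis) against the log2 fold change of SCI over sham (edgeR, y axis) for the 44 members tested (red) and the 440 other circRNAs tested (grey). The Lbr member, at -2.27, is the only call, and 17 of the 44 members lie above 0.

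When the members of each host were summed apart from the host's other circRNAs, 54 member sums were among the 639 tested. One, Lbr, was lower (log2 fold change -2.22, SE 0.32, adjusted p = 0.00775 by edgeR) and 0 were higher, and it was the only call, 0.156% of the sums tested. At an unadjusted p under 0.05 there were 7 of the 54 member sums, 3 of them higher, and 41 of the 639 sums in all (6.42%), 27 of them higher (4.23%). The call was lost without SCI replicate 1, SCI replicate 3 or sham replicate 1. The 2 members of Ndrg3 together had 129, 97 and 87 reads in SCI against 34, 31 and 19 in sham libraries (log2 fold change 1.01, SE 0.30, adjusted p = 0.573). The Tuba1a sum, with 1 member, stood at -0.97 (SE 0.20, adjusted p = 0.0942).

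Among the hosts with most members, Zranb1, a deubiquitinase gene, had 9. They spanned 2474 to 29825 bp, 5 of them met at the same end, and they had 83 reads in SCI and 48 in sham. The most read pair differed in pattern. The 29258 bp junction (chromosome 1, 211951683 to 211980940) was read 9, 15 and 10 times in SCI libraries against 5, 3 and 4, and the 27590 bp junction (211953351 to 211980940) had 4, 7 and 12 against 16, 5 and 0, with 16 in 1 sham library. Neither passed (log2 fold changes 0.59, SE 0.76, and -0.78, SE 0.98; adjusted p = 0.971 for both by edgeR). Fmn2, an actin-nucleating formin gene, had 7 members with 33 reads in SCI and 11 in sham, 4 of them on a single shared end, and no other sense circRNA. Ahnak, which encodes a giant scaffold protein, had 7 with 27 and 25 reads, all with different starts and ends. LOC102549619 also had 7, with 6 and 17 reads.

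Some members were read in 1 group alone, mostly at low counts. Reads were in SCI libraries only for 1198 members, in sham libraries only for 625 and in both for 325, out of 61705 back-splice reads in the SCI and 34158 in the sham libraries. This split was not counted over the whole table, so it is not read as a result about the members. All 3 SCI libraries and 0 sham libraries had reads for 37 members (1.72%), against 318 of the 11061 circRNAs (2.87%). The most read of these were in RT1-N2, a class I major histocompatibility gene, with 2, 3 and 14 reads, and Alkbh8, a tRNA-modifying enzyme gene, with 3, 12 and 3. Most of these reads were in 1 library, 14 of 19 for RT1-N2 and 12 of 18 for Alkbh8. LOC102551675 had 8, 3 and 6 reads, Whsc1, a histone methyltransferase gene, 1, 6 and 8, and Kifap3, a gene of the kinesin-2 complex, 7, 4 and 3. The reverse pattern was held by 1 member (0.0466%), against 7 circRNAs of the table (0.0633%). The member lies in Mtrf1, a mitochondrial translation release factor gene (chromosome 15, 65330206 to 65347367, plus strand). It had 0 reads in each SCI library and 7, 3 and 7 in sham, and it was named because its SCI reads were 0. The other leading sham-only members rested on 1 or 2 libraries: Zbtb10 with 9, 4 and 0 reads, Nlk with 6, 0 and 6, and Fam3c and Klhdc10 with 12 and 11 in sham replicate 3 alone. None of these 10 members had enough reads to be tested.

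Members were then grouped by the function of their hosts. Shares of member reads on presynaptic and chromatin hosts were apart between SCI and sham libraries. They overlapped when the most read member of each list, in Sv2b and in Ubn2, was left out, a setting chosen after seeing the data. The 22 members on presynaptic hosts had 69, 99 and 76 reads in SCI against 36, 14 and 35 in sham, or 2.15% to 3.04% of member reads against 0.787% to 1.76%, and most of them were on Sv2b. Without Sv2b the shares were 0.349% to 0.723% and 0.298% to 0.563%. The vesicle-priming gene Cadps had a member with 0, 4 and 6 reads against 0, 3 and 0, and the active-zone gene Erc2 one with 8 reads in sham replicate 3 alone. The 33 members on chromatin hosts had 81, 97 and 92 reads against 38, 23 and 22 (2.53% to 3.13% against 0.955% to 1.86%), and without the Ubn2 member 1.79% to 2.07% against 0.623% to 1.86%. That overlap came from sham replicate 1 alone, with 38 reads left against 11 and 15 in the other sham libraries. Ubn2 led them, followed by the histone demethylase gene Kdm4c (19, 32 and 17 against 17, 6 and 1; log2 fold change 0.56, SE 0.71) and Ep400 (8, 10 and 9 against 12, 0 and 4; -0.13, SE 0.94, with the sign turning in 5 of 12 alternatives). Of the 4 members tested in these 2 lists, 3 had positive values and 0 passed. Neurotransmitter receptor hosts had 10 members with 11, 6 and 9 reads against 2, 3 and 0, and 8 of the 10 were read in 1 library. The most read, in Chrna7, Grm7 and Grik4, had 4, 6 and 4 reads, in SCI libraries only, and the 5 sham reads were on other members. Without the Grm7 member the shares of this list overlapped (0.123% to 0.343% against 0% to 0.169%).

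Nuclear envelope and transport hosts, with 9 members, had 42, 35 and 22 reads in SCI against 70, 31 and 81 in sham, most of them on Lbr. The nuclear export receptor gene Xpo1 had 8, 0 and 1 against 7, 0 and 7. Axon guidance hosts had 9 members with 7, 1 and 4 reads against 12, 12 and 8, of which 7 were read in 1 library. Without the Unc5c member their shares of member reads overlapped (0.0307% to 0.187% against 0.0984% to 0.675%). In this list the guidance cue gene Slit1 had 8 reads in sham replicate 3 and the netrin receptor gene Unc5c 10 in sham replicate 1. Protein kinase hosts had 36 members with 24, 34 and 36 reads against 5, 16 and 30, and small GTPase regulators 35 with 111, 109 and 91 against 56, 76 and 87. Cytoskeletal hosts had 35 members with 9.77% to 11.7% of member reads in SCI and 10.6% to 13.7% in sham, with Nckap1 and Tuba1a in the lead. Without the Nckap1 member these shares were apart, at 4.02% to 5.02% against 5.74% to 7.36%. Most of the reads left were on the Tuba1a member, whose host is uncertain. In Tubb2a, a beta-tubulin gene, the member had 19 of its 21 reads in a single SCI library. Members on ubiquitin hosts (46) held 1.67% to 2.12% of member reads in SCI and 2.19% to 2.64% in sham, and those on metabolic hosts (26), led by Acaca, 2.85% to 3.81% and 3.86% to 4.61%, with no overlap in either. Without Ubb and Acaca, the most read of each, these shares overlapped (0.96% to 1.39% against 1.3% to 1.75%, and 0.252% to 0.946% against 0.528% to 1.03%). Shares of the postsynaptic, ion channel, RNA binding, autophagy, zinc finger and kinase hosts overlapped between the groups. The 2 members on inflammatory signalling hosts went opposite ways in their counts: Tgfbr1, a TGF-beta receptor gene, had 7, 4 and 2 reads in SCI against 0, 1 and 0 in sham, and Smad2, a transducer of the same pathway, 0, 0 and 0 against 1, 0 and 8. These counts are descriptions of hosts chosen with earlier results known.

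Among the cell type lists, oligodendrocyte and myelin hosts and astrocyte hosts had the most members. The lists differed in length, from 44 symbols for the first to 10 for red blood cells. The table holds no linear gene expression, so the tissue itself was not checked by marker levels. The 30 members on oligodendrocyte and myelin hosts had 59, 48 and 48 reads in SCI against 34, 36 and 29 in sham (1.47% to 1.84% of member reads against 1.26% to 2.02%), with a median span of 728 bp. The most read after Mbp and Rnf220 was in Ermn, a myelin cytoskeletal gene, with 2, 2 and 6 reads against 1, 4 and 0. The 13 members on astrocyte hosts had 0, 0 and 6 reads in SCI against 8, 6 and 13 in sham, and each of the 13 was read in 1 library only. Their shares of member reads were apart, at 0% to 0.204% against 0.337% to 0.564%. Without the most read S100b member they were 0% to 0.204% against 0.218% to 0.392%, still apart but on few reads. Microglia and macrophage hosts had 1 member, in Ikzf1, with 3 reads in sham replicate 3. Neutrophil and lymphocyte hosts and Schwann cell hosts had 0 members. Skeletal muscle hosts had 2 members with 4 reads, 2 in SCI replicate 1 and 2 in SCI replicate 2. The 2 members on red blood cell hosts had 5 reads, all from SCI replicate 1 alone. Whether cell composition bears on the differences between SCI and sham was not tested.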

How the data were processed

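Back-splice junction reads were counted by the authors in 6 rat spinal cord libraries, 3 SCI and 3 sham, grouped by the labels. Per the file headers, the authors deposited junction reads of each circRNA as raw counts in whole numbers, with class, host, positions and circBase identifier. The deposited log2 CPM columns were not used. Per the submitters' processing notes, Bowtie 0.12.2 and the build mm8, a mouse build, were used. No source used here names the circRNA caller or the build behind the positions, which follow the table (counted from 1 here). Total sequencing depth is unknown.

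Counts over the whole table were tested with edgeR 4.0.16 (R 4.3.3; TMM scaling, filterByExpr with a minimum count of 5 and total of 15, quasi-likelihood F test, Benjamini-Hochberg adjustment, threshold 0.05), per circRNA and per host and class sum. SE is the log2 fold change over the root of F. Alternatives were DESeq2 1.42.0, limma-voom (limma 3.58.1), other scalings and filters, a replicate block, and each library left out. Shares and spans were compared with two-sided exact permutation tests (SciPy 1.17.1), and libraries were thinned by hypergeometric expectation to 9805 reads. The tests were checked on simulated data.

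Named members were those called, the 8 positive and 8 negative with the smallest p, the 10 most read, the 5 longest and 5 shortest with 20 or more reads, all members of the 5 hosts with most, the 3 most read of each host list (not all are described), the 5 most read in each group alone, and the 3 leading host sums. One host gene is not reported here. Members and lists were chosen with earlier results of these data known. Intervals cover counting error only.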

Additional observations from a re-analysis of the deposited data

How the results depend on the processing

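The count of members called lower per circRNA, 1 in the comparison reported, was 2 with library totals only, with a minimum count of 10 and total of 30, with DESeq2, with limma-voom and with the replicate block, and 0 with no filter. Leaving out 1 library gave 0 to 2. For host sums, 1 as reported, it was 2 with library totals only, with the stricter minimum, with DESeq2 and with limma-voom, and 0 to 2 with 1 library left out. With no filter 1 host sum, Ndrg3, was higher (adjusted p = 0.0348 by edgeR). The cause of these changes was not tested. The replicate numbers shared by the groups did not pair the libraries (correlations of deviations 0.103, 0.0617 and 0.09 over 484 circRNAs), and the block added 1 call, Tuba1a, and kept the host sum count at 1. With no filter, log2 fold changes turned positive for Ubb (0.12), Acaca (0.081), Ep400 (0.50), Srp72 (0.27), Hook3 (0.22), Nrxn2 (0.48), Nckap1 (0.47), Ralgapa1 (0.14) and LOC103690442 (0.055), along with the shift of all circRNAs. With limma-voom Ep400 (0.63) and Srp72 (0.72) turned, and with the replicate block Ep400 (0.39) and Srp72 (0.15). With 1 library left out values lay between -0.55 and 1.46 for Ep400, -0.71 and 0.70 for Srp72, -0.18 and 0.25 for Nrxn2, -0.16 and 0.18 for Nckap1, -0.15 and 0.59 for Dennd5b, and -0.52 and 0.018 for Ralgapa1.

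Of the 7 measures between groups, the share of member reads on the 10 most read members (0.15 points higher in SCI as reported) turned to -1.25 over all sense overlapping circRNAs and lay between -1.84 and 3.42 with 1 library left out. The share of members among circRNAs with a read (-0.65 points) was 0.13 with only members read in 2 or more libraries, added after seeing the data, and between -1.42 and 0.33 with 1 library left out. With circRNAs of 5 or more reads, members had 2.67 more reads than sense overlapping circRNAs with an identifier and 1.499 points more with exactly 1 read, both turned, while the differences in span of 9159 bp and 6380 bp and in reads of 5.10 against exonic circRNAs passed after adjustment. At these depths most members cannot be compared one by one.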
